A study of Mus musculus with 30 samples.

Results

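Acp5, Ctsk, Ckb, Calcr and Anxa8 are 5 genes whose RNA accumulates late in the formation of osteoclasts, the multinucleated cells that resorb bone. They were picked by name, with earlier results of these data known, as 5 of the 45706 genes listed in the deposited tables. They were followed through mouse bone marrow-derived macrophages cultured on bone slices with the growth factor M-CSF (25 ng/ml) and the osteoclast-inducing cytokine RANKL (100 ng/ml). The series held 30 bulk RNA libraries in 10 groups of 3. All mice were C57BL/6J, either Terc-/-, which lack the RNA template of telomerase, or wild type, aged 1, 6 or 20 months (20 months for wild type only). Cultures were stopped when large multinucleated cells appeared, or after 2 days.

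The 519-titled libraries were Terc-/- large-cell cultures from mice of 6 months and of 1 month, and the gaiwei-titled libraries were wild-type large-cell cultures from 1-month mice. Nothing in the sources used here says what 519 or gaiwei stands for, so the 9 libraries with either word are called marked and the others unmarked. The unmarked large-cell groups were Terc-/- at 6 and 1 months and wild type at 1, 6 and 20 months. The 2-day groups were wild type at 20 and at 6 months. The labels do not tie libraries to animals. The p-values measure the spread between libraries within groups, pooled over all 10 groups, and that spread may be technical.

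During osteoclast formation, RANKL acts on its receptor on the macrophage to raise the transcription factors c-Fos and NFATc1, and mononuclear precursors fuse. With the pigment-cell factor MITF and the myeloid factor PU.1, NFATc1 turns on genes of the resorbing cell. Acp5 encodes tartrate-resistant acid phosphatase, the enzyme stained to identify osteoclasts, and Ctsk encodes cathepsin K, the protease that cleaves bone collagen in the acid space under the cell. Ckb encodes brain-type creatine kinase, which regenerates ATP from phosphocreatine and is used by the resorbing osteoclast. Calcr encodes the receptor through which calcitonin stops resorption, and Anxa8 encodes annexin A8, a calcium-dependent phospholipid-binding protein.

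The genes lie on 5 chromosomes of GRCm38 in GENCODE M21. Acp5 (ENSMUSG00000001348) spans chromosome 9 at 22126727 to 22135711 on the minus strand, and Ctsk (ENSMUSG00000028111) chromosome 3 at 95499256 to 95509362 on the plus strand. Ckb (ENSMUSG00000001270) spans chromosome 12 at 111669361 to 111672338 on the minus strand. Calcr (ENSMUSG00000023964) spans chromosome 6 at 3685680 to 3764714 on the minus strand, and Anxa8 (ENSMUSG00000021950) chromosome 14 at 34085981 to 34100571 on the plus strand. Acp5 lies wholly inside the opposite-strand transcript 6530413G14Rik, and Anxa8 wholly inside the opposite-strand gene A630023A22Rik, which reached at most 6.26 TPM in any library. No level was listed under the name 6530413G14Rik. These overlaps are of whole gene spans, and overlap of exons was not checked. The counting is not stated to use strand, so reads from these opposite-strand partners may not have been told apart from those of Acp5 and Anxa8.

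Promoter windows are shown for 4 of the genes, which moved together in the stage and marked comparisons below. The Calcr windows and the other Acp5 windows are not shown. Each printed window runs 5′ to 3′ on the gene's strand, from 250 bases before a RefSeq start to 50 bases after it (GRCm38.p6). Capitals mark matches on either strand to these motifs. They are GGAAA, the core bound by NFAT, TCANNTGA, the palindromic box of MITF and its relatives, GAGGAA, the core bound by PU.1, and TATAAA, the element near many starts. The AP-1 motif TGANTCA was searched as well. No marked matches overlap. The windows lie at chr9:22130549-22130848 (minus strand, the last of 3 Acp5 windows), chr3:95498960-95499259 (plus strand), chr12:111672289-111672588 (minus strand) and chr14:34085729-34086028 (plus strand).
Acp5: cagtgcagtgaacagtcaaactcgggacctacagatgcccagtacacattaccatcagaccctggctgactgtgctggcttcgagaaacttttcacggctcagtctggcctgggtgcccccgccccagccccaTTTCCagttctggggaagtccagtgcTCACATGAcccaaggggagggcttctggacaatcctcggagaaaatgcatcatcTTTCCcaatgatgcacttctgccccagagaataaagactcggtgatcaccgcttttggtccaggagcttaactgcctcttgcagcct
Ctsk: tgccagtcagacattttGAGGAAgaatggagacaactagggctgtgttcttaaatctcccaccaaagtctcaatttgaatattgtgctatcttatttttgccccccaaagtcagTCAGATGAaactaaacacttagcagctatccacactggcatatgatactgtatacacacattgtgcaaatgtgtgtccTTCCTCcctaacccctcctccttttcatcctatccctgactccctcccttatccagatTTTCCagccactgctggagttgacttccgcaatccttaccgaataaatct
Ckb: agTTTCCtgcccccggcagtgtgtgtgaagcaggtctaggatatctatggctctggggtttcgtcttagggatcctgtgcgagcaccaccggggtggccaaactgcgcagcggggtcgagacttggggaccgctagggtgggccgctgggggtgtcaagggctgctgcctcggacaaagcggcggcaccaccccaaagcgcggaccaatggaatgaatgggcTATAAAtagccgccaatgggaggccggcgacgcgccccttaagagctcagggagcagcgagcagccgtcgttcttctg
Anxa8: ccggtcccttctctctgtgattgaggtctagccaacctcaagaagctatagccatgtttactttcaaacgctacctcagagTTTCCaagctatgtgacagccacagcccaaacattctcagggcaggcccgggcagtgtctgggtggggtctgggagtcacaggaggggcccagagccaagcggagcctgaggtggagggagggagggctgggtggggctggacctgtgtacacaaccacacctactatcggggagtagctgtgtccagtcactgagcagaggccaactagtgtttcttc

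TCANNTGA was present in 8.39% of 32851 mouse promoter windows of this length. Among the 8 windows of the 5 genes it occurred in the printed Acp5 window, as TCACATGA starting 91 bases before the start, and in the Ctsk window, as TCAGATGA starting 136 bases before it. Ctsk also held 2 GAGGAA matches, a motif in 28.3% of windows. Ckb held TATAAA 28 bases before its start, a motif in 13.6% of windows. GGAAA was in 61.3% of all windows and in 7 of these 8. TGANTCA, in 7.81% of windows, was in none of the 8. The printed Acp5 window was the only Acp5 window with TCANNTGA, and it held 2 GGAAA matches, against 1 in each of the others. Of the Calcr windows, the first held no match to any of these motifs and the second 1 GGAAA match. These matches describe the letters only.

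Values are read as TPM (transcripts scaled to a fixed library total), a unit adjusted for gene length. Levels of different genes are set beside each other on that reading, which the column totals alone do not show. Tests used limma on log2(TPM + 1) after scaling between libraries, fitted over the 12614 genes that averaged 1 TPM or more, with Benjamini-Hochberg adjustment in each comparison. Adjusted p below 0.05 counts as a call, and fold changes are on the log2(TPM + 1) scale, which understates those of low genes. All 5 genes passed the filter. Calcr passed only through the unmarked large-cell libraries, so its differences from the marked and 2-day groups are described without a test.

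Read depth is unknown, since the tables hold TPM alone. The libraries had 11270 to 12937 genes at 1 TPM or more, and 3.20% to 10.2% of TPM on mitochondrial genes. Terc, whose RNA has no poly(A) tail, was above 0 in 3 of 30 libraries (all wild type, at most 1.13 TPM), so it gives no check of genotype. Replicate 2 of the 6-month wild-type large cells stood apart, with a mean correlation of 0.909 to its own group. The X-inactivation RNA Xist ranged over 46.6 to 84.1 TPM in unmarked wild type at 1 month (3 libraries) and did not exceed 0.254 TPM in the other 27. Each comparison with that group therefore also compares Xist-negative with Xist-positive cultures, and these cannot be told apart. The sex-linked gene Eif2s3y was at 0 in that group and at 12.1 to 19.2 TPM in 1-month Terc-/- libraries, unmarked and 519. It was at 40.8 to 82.0 TPM in all other libraries. Comparisons of 1-month Terc-/- with other groups, such as those by age and with gaiwei, therefore also differ in this gene. The labelled osteoclast identity was set beside 30 other osteoclast genes, which summed to 4165 to 9489 TPM per library in unmarked large cells. They summed to 2469 to 4109 TPM in marked cultures and to 1819 to 2423 TPM after 2 days. The gene Csf1r is on both this list and the macrophage list used below. The sums therefore do not separate osteoclasts from macrophages, and single genes of the list differed by more, as given below. In bulk RNA, fewer osteoclasts and less of an RNA per osteoclast cannot be told apart.

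**Figure D1:**
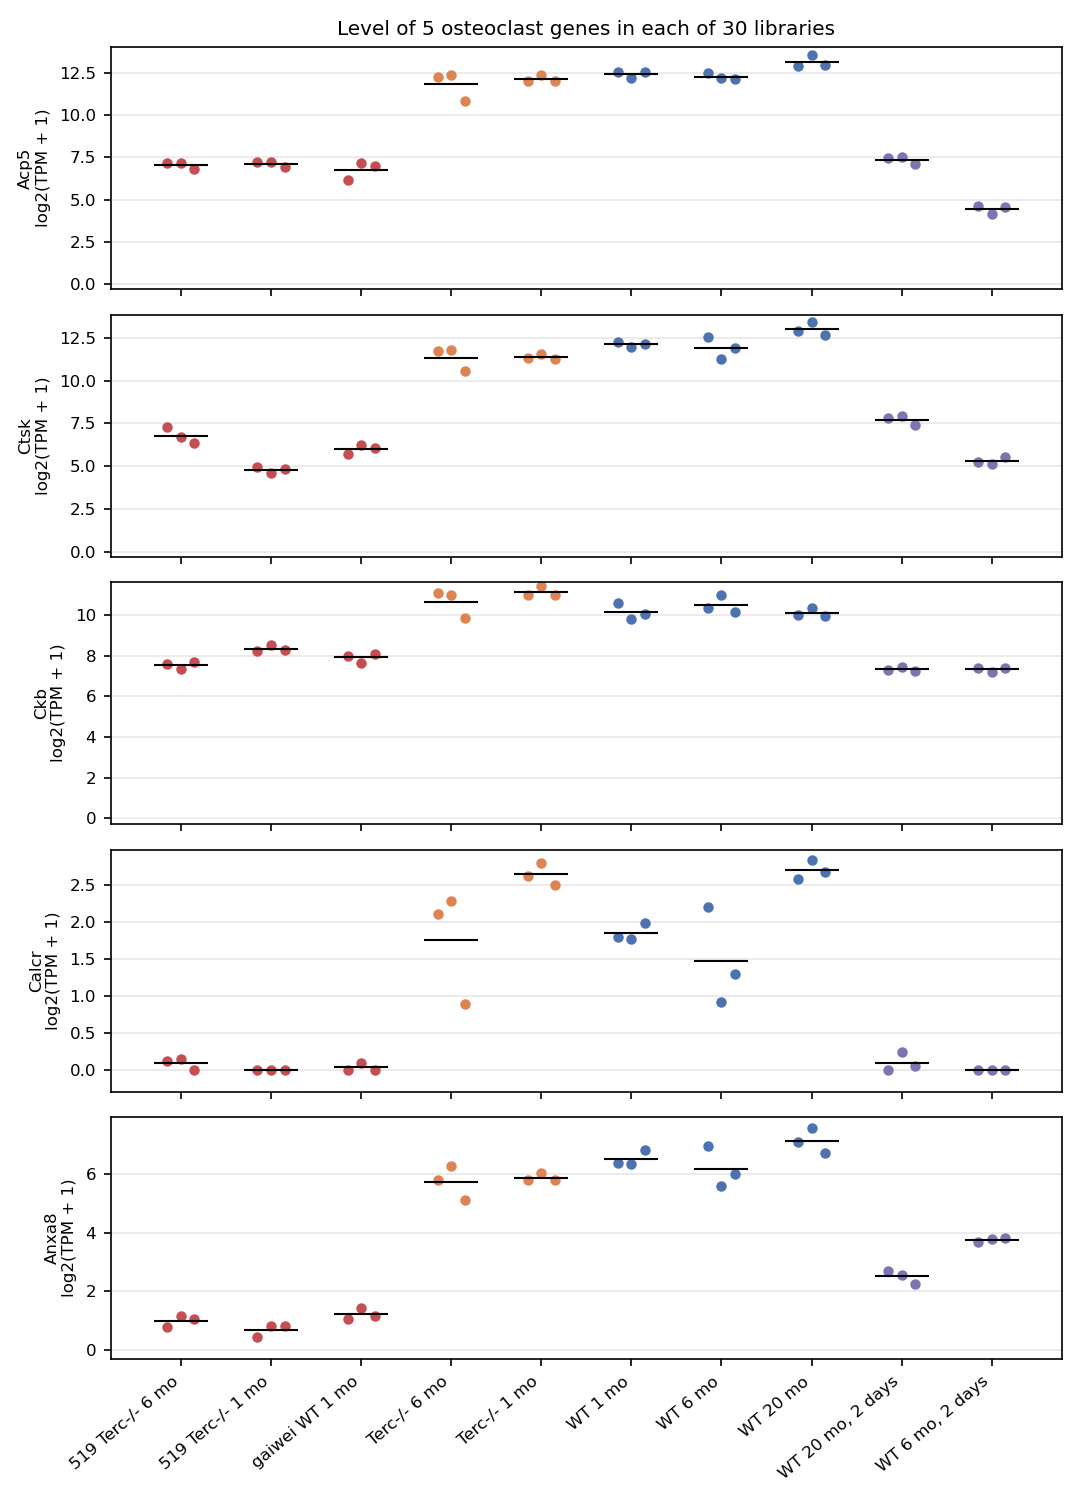
Level of each gene, log2(TPM + 1), in each of 30 libraries; points are libraries, bars are group means, and groups of 3 run from marked (left) through unmarked large cells to 2 days (right). All 5 genes sit higher in each of the 15 unmarked large-cell libraries than in any of the 15 others.

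The 5 genes were higher in large-cell than in 2-day wild-type cultures at both ages. Acp5, the stain enzyme, had 5680, 4668 and 4553 TPM in 6-month large-cell cultures, against 23.5, 16.9 and 23.1 TPM at 2 days. At 20 months it had 7623, 12058 and 7908 TPM in large-cell cultures, against 172.9, 185.8 and 136.7 TPM at 2 days. Large-cell and 2-day libraries stood far apart at both ages, and the 2-day level was itself higher at 20 months. The rise was 292-fold at 6 months (log2 8.19 ± 0.31 SE, adjusted p = 3.58e-15 in limma) and 59.4-fold at 20 months (5.89 ± 0.31, adjusted p = 9.45e-13).

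Ctsk, the collagen protease, had 6064, 2469 and 3822 TPM in 6-month large-cell cultures, against 36.8, 34.6 and 45.1 TPM at 2 days. In 20-month mice it had 7791, 11089 and 6510 TPM in large-cell cultures, against 226.5, 241.6 and 165.8 TPM at 2 days. Within 6-month large cells the library that stands apart (replicate 2) was the lowest. Ctsk rose 127-fold at 6 months (6.99 ± 0.27, adjusted p = 4.06e-15) and 42.9-fold at 20 months (5.42 ± 0.27, adjusted p = 7.1e-13).

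Ckb, the energy enzyme, had the highest 2-day level of the 5 at 6 months. Its large-cell libraries held 1282, 2031 and 1153 TPM at 6 months, against 165.9, 144.9 and 169.7 TPM at 2 days. The 20-month libraries held 1031, 1306 and 995.6 TPM for large cells, against 157.5, 172.4 and 152.3 TPM at 2 days. The 2-day levels overlapped between ages. The rise was 11.8-fold at 6 months (3.56 ± 0.31, adjusted p = 5.88e-09) and 7.44-fold at 20 months (2.89 ± 0.31, adjusted p = 1.04e-07).

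Calcr, the calcitonin receptor, was the least abundant member. It had 3.58, 0.892 and 1.45 TPM in 6-month large-cell libraries and was listed at 0 in all 3 at 2 days, so no fold is given. At 20 months it had 4.98, 6.14 and 5.37 TPM in large-cell libraries, against 0, 0.180 and 0.0296 TPM at 2 days. Every large-cell value was above every 2-day value.

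Anxa8, the annexin, had 121.2, 46.7 and 62.8 TPM in 6-month large-cell libraries, against 11.9, 12.7 and 12.9 TPM at 2 days. At 20 months it had 132.5, 188.2 and 102.3 TPM in large-cell libraries, against 5.53, 4.90 and 3.78 TPM at 2 days. Its 2-day level was thus lower at 20 months, the reverse of Acp5 and Ctsk. It rose 6.86-fold at 6 months (2.78 ± 0.24, adjusted p = 4.86e-09) and 25.2-fold at 20 months (4.65 ± 0.24, adjusted p = 9.45e-13).

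Acp5, Ctsk, Ckb and Anxa8 were thus called higher at both ages, where 24.6% of all genes tested were called higher at 6 months and 18.7% at 20 months. Among 30 other osteoclast genes, 27 rose at 6 months and 28 at 20 months, with none lower (23 higher and 2 lower at 6 months with TPM as deposited). Those with the largest changes at 6 months were the proton-pump subunit gene Atp6v0d2 (6.70), the sodium-proton exchanger gene Slc9b2 (6.39), the fusion gene Dcstamp (6.03) and the costimulatory receptor gene Oscar (5.12). Oscar (6.04) had the largest change of the list at 20 months. Siglec15, of that list, was at 0 in every 6-month 2-day library. In their lowest libraries Dcstamp had 0.106 TPM and Oscar 0.0829 TPM. A list gene that, like Calcr, passed the filter only through large cells could only be called higher. Such genes were not set apart, so these counts describe the list and do not test it. Of 14 tested markers of stromal cells and osteoblasts, 0 rose and 5 fell at 6 months (10 fell with TPM as deposited), while 9 rose and 1 fell at 20 months. The summed level of the 18 listed stromal genes was 2275 to 3258 TPM in large cells, against 5453 to 6380 TPM at 2 days, at 6 months. At 20 months it was 7988 to 9857 TPM in large cells, against 2420 to 2941 TPM at 2 days. Of 19 macrophage markers, 8 rose and 4 fell at 6 months (5 and 6 with TPM as deposited), and 3 rose and 10 fell at 20 months. Both tested B cell markers fell at 20 months, and the 8 listed ones summed to 4.32 to 9.58 TPM in large cells, against 85.0 to 109.9 TPM at 2 days. The 50 most abundant genes took 29.8% to 34.4% of TPM in the 15 unmarked large-cell libraries, against 26.2% to 28.5% at 2 days. The part of these cells, and of library make-up, in the changes of the 5 genes was not tested. The calls of the 4 tested genes held without each library in turn.

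**Figure D2:**
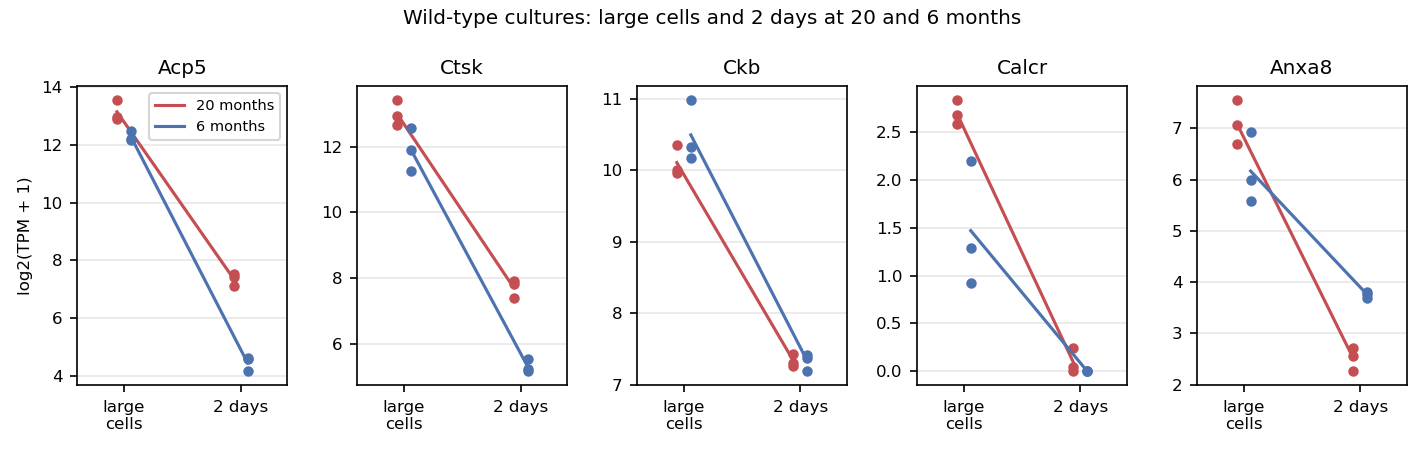
Wild-type cultures by stage and age: log2(TPM + 1) in large-cell and 2-day libraries at 20 months (red) and 6 months (blue), with points as libraries and lines joining group means. At 2 days, Acp5 and Ctsk sit higher at 20 months and Anxa8 lower, while Ckb overlaps.

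After 2 days, 3 of the 5 genes were called different between 20-month and 6-month cultures, where 17.3% of all genes were called. Acp5 was 7.32-fold higher at 20 than at 6 months (2.87 ± 0.31, adjusted p = 1.24e-06), and Ctsk 5.19-fold higher (2.37 ± 0.27, adjusted p = 3.19e-06). Anxa8 was 2.34-fold lower (-1.23 ± 0.24, adjusted p = 0.00109). Ckb averaged 161 ± 10.5 TPM at 20 months and 160.2 ± 13.4 TPM at 6 months (SD, n = 3 each), with overlapping ranges and adjusted p = 0.988. Of the other osteoclast genes, 12 of 30 were higher and 3 lower at 20 months, led by Atp6v0d2 (2.73) and Dcstamp (2.18). Beside this, 8 of 14 stromal markers (4 with TPM as deposited) were lower at 20 months and none higher, and 10 of 19 macrophage markers were higher and none lower. Both tested B cell markers were higher at 20 months, with sums of 85.0 to 109.9 TPM at 20 months and 2.71 to 6.98 TPM at 6 months. Their part in the differences was not tested.

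The stage effect itself was tested for a difference between ages. The change from 2 days to large cells was smaller at 20 than at 6 months for Acp5 (-2.30 ± 0.43, adjusted p = 4.74e-04) and Ctsk (-1.57 ± 0.38, adjusted p = 0.00451). It was larger at 20 months for Anxa8 (1.88 ± 0.34, adjusted p = 3.44e-04). For Ckb the difference was -0.66 ± 0.44 (adjusted p = 0.272). Over all genes 25% were called in this test. The Calcr term (0.95 ± 0.33, adjusted p = 0.0348) sets one group listed at 0 beside another near it. It lost its call in 13 alternatives, 9 of them the omission of 1 library, with adjusted p up to 0.329 at a pseudocount of 0.1. Ctsk lost its call with one variance per group (adjusted p = 0.0775). In the same test 9 of 14 stromal markers had a larger change at 20 months, 10 of 19 macrophage markers and both tested B cell markers a smaller one, and none the reverse. Their part was not tested.

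The marked large-cell libraries had far less of all 5 genes than the unmarked ones, in both genotypes. Acp5 had 145.3, 144.8 and 113.4 TPM in 519 Terc-/- cultures at 6 months, against 4831, 5403 and 1860 TPM unmarked. At 1 month the 519 libraries had 145.6, 146.9 and 119.2 TPM, against 4169, 5395 and 4061 TPM in unmarked Terc-/-. The gaiwei wild-type libraries had 69.96, 142.1 and 124.5 TPM, against 6068, 4652 and 5875 TPM in unmarked wild type at 1 month. Acp5 in marked libraries overlapped the 20-month 2-day range and lay above the 6-month one. The log2 changes of Acp5 in these pairs were -4.48, -4.56 and -5.10 (SE 0.31 each, adjusted p = 1.4e-10, 5.61e-11 and 4.07e-12).

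Ctsk showed the largest drop in 1-month cultures of both genotypes. It had 154.1, 104.8 and 82.0 TPM in 6-month 519 libraries, against 3392, 3576 and 1499 TPM in unmarked Terc-/- (-4.28 ± 0.27, adjusted p = 5.53e-11). In 1-month 519 libraries it had 30.02, 23.5 and 27.4 TPM, against 2545, 2995 and 2518 TPM unmarked (-6.13 ± 0.27, adjusted p = 1.21e-13). The gaiwei libraries had 52.1, 74.4 and 66.5 TPM, against 4859, 3998 and 4626 TPM unmarked (-5.56 ± 0.27, adjusted p = 3.52e-13). These 1-month changes were 69.9-fold and 47.0-fold.

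Ckb fell least of the abundant members. Its 6-month 519 libraries had 189.2, 161.5 and 203.6 TPM, against 2173, 2008 and 922.3 TPM unmarked (-2.82 ± 0.31, adjusted p = 2.05e-07). In 1-month 519 libraries it had 300.7, 367.7 and 310.7 TPM, against 2038, 2726 and 2012 TPM unmarked (-2.31 ± 0.31, adjusted p = 2.99e-06). The gaiwei libraries had 255.4, 199.8 and 271.7 TPM, against 1558, 896.0 and 1069 TPM unmarked (-1.68 ± 0.31, adjusted p = 1.04e-04). Marked and unmarked ranges did not overlap in any pair.

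Calcr was listed at 0 in 6 of the 9 marked libraries, and the others had 0.0831 and 0.101 TPM (6-month 519) and 0.0604 TPM (gaiwei). The unmarked partners had 3.31, 3.86 and 0.849 TPM in Terc-/- at 6 months, 5.17, 5.97 and 4.65 TPM in Terc-/- at 1 month, and 2.46, 2.39 and 2.96 TPM in wild type at 1 month. Every marked value was below every unmarked one.

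Anxa8 was almost lost from the marked libraries, below its level in either 2-day group. It had 0.746, 1.24 and 1.09 TPM in 6-month 519 libraries, against 54.6, 75.6 and 33.5 TPM unmarked (-4.53 ± 0.24, adjusted p = 5.09e-12). The 1-month 519 libraries had 0.381, 0.773 and 0.786 TPM, against 53.5, 63.4 and 53.4 TPM unmarked (-4.90 ± 0.24, adjusted p = 6.73e-13). The gaiwei libraries had 1.11, 1.70 and 1.24 TPM, against 80.7, 78.5 and 110.4 TPM unmarked (-4.88 ± 0.24, adjusted p = 3.71e-13).

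Acp5, Ctsk, Ckb and Anxa8 were called lower in the 3 marked comparisons, where 13.8% (6-month Terc-/-), 15.1% (1-month Terc-/-) and 22.3% (1-month wild type) of all genes were called lower. Of the 30 other osteoclast genes, 23, 24 and 20 were lower, and 2, 3 and 3 higher, in the same order. With TPM as deposited 25, 26 and 27 were lower and none higher. Dcstamp had the largest drop in each, with log2 changes of -4.54, -5.92 and -5.23. Siglec15, of that list, was at 0 in every 1-month 519 library. List genes that passed the filter only through unmarked large cells could only be called lower and were not set apart. Of 19 macrophage markers, 9, 16 and 15 were higher in the marked libraries, and 4, 0 and 0 lower. Their summed level was 47308 to 83697 TPM in the 9 marked libraries and 18780 to 49982 TPM in the 15 unmarked large-cell libraries. Of 5 tested neutrophil markers, 4 were higher in each comparison, and the 12 listed ones summed to 1450 to 3858 TPM in marked and 18.2 to 316.4 TPM in unmarked large-cell libraries. Elane and Retnlg, of that list, were at 0 in every library of the series. S100a9 and Mpo were also at 0 in every 1-month 519 library, and Mpo and Cxcr2 in every 6-month 519 library. Of 14 stromal markers, 4, 5 and 11 were lower in the marked libraries, and 0, 0 and 1 higher. The 18 listed stromal genes summed to 725 to 905, 266 to 327 and 414 to 582 TPM in the marked groups, against 645 to 2215, 373 to 856 and 1987 to 6300 TPM in their unmarked partners. Library make-up differed too, without overlap: marked libraries had 11270 to 11861 genes at 1 TPM or more and 35.6% to 41.3% of TPM on the 50 most abundant genes, against 11938 to 12937 genes and 29.8% to 34.4% in unmarked large-cell libraries. The part of these cells, or of library make-up, in the lower levels of the 5 genes was not tested. The calls of the 4 tested genes held without each library in turn.

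**Figure D3:**
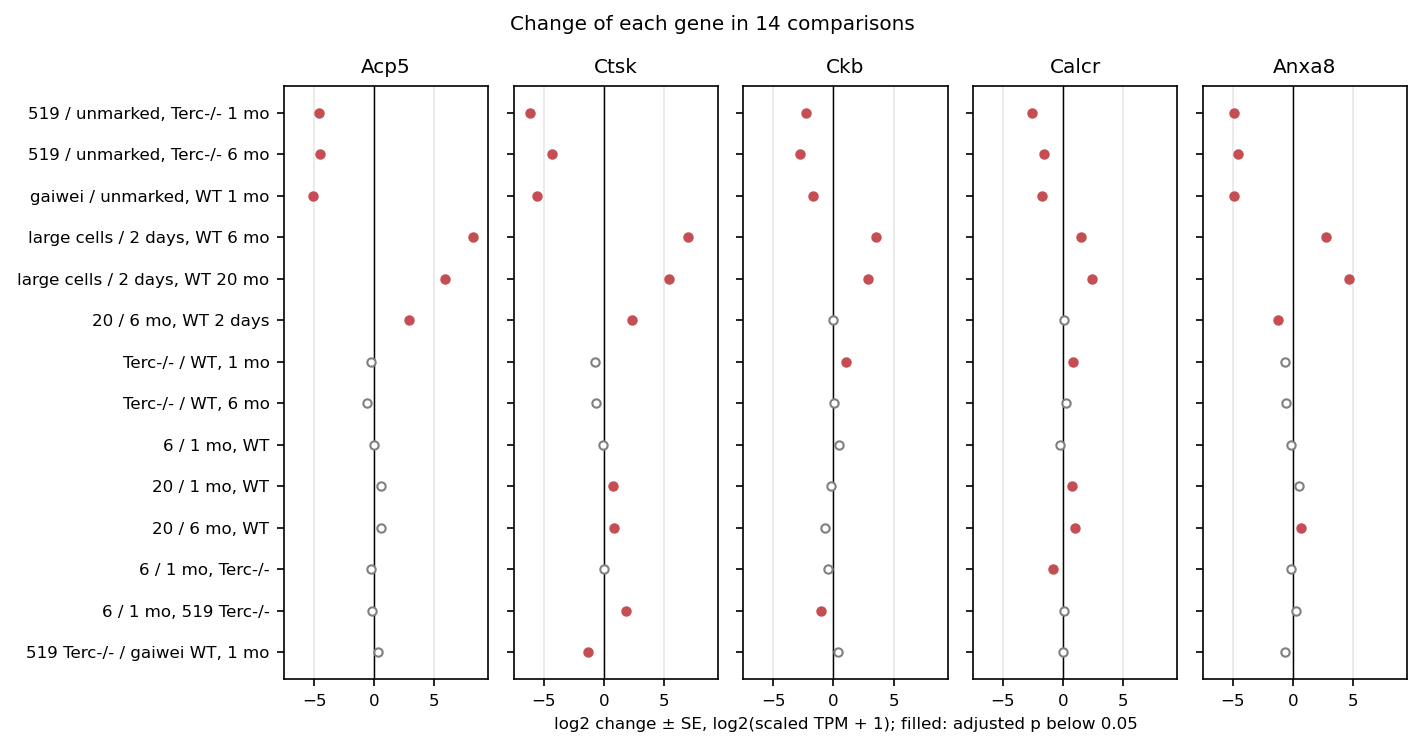
Fitted log2 change (points, with SE bars mostly shorter than the point) of each gene in 14 comparisons, first-named group over second; filled points have adjusted p below 0.05. The marked and stage comparisons at the top reach -6.13 and 8.19, while genotype and age comparisons stay within about 1 of 0 except among marked and 2-day cultures. Calcr points of the stage and marked comparisons are fitted values of a gene that passed the filter through its high groups, and support no call.

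The unmarked groups of the marked comparisons are also those of the comparisons by genotype and age below, so these share libraries. Between genotypes at 1 month, Terc-/- large cells had more Ckb and Calcr than wild type, in unmarked libraries. Ckb averaged 2259 ± 405 TPM in Terc-/- and 1174 ± 343 TPM in wild type (SD, n = 3 each), 2.00-fold higher with ranges apart (1.00 ± 0.31, adjusted p = 0.0178). Calcr averaged 5.26 ± 0.663 TPM in Terc-/- and 2.60 ± 0.308 TPM in wild type (0.81 ± 0.23, adjusted p = 0.0095). Ctsk averaged 2686 ± 268 TPM in Terc-/- and 4494 ± 445 TPM in wild type (-0.71 ± 0.27, adjusted p = 0.0501), and Anxa8 56.8 ± 5.73 and 89.9 ± 17.8 TPM (-0.61 ± 0.24, adjusted p = 0.0599). Acp5 averaged 4542 ± 741 and 5531 ± 768 TPM in the same order, with overlapping ranges (adjusted p = 0.567).

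The 2 calls stood where 30.9% of all genes were called. Ranges did not overlap for 4 of the 5 (all but Acp5), as for 40.5% of all genes. The Ckb call was lost without Terc-/- replicate 3 (adjusted p = 0.0937), without wild-type replicates 3 (0.107) or 4 (0.0747), and with only these groups in the fit (0.0758). Calcr lost its call without Terc-/- replicate 3 (0.0535) and with a pseudocount of 0.1 (0.0913). Ctsk and Anxa8 were called lower without wild-type replicate 3 (0.0498 each), and Anxa8 with only these groups in the fit (0.0448). Both were also called without 6-month wild-type replicate 2 (0.0376 and 0.0466), an alternative chosen after seeing the data. Among the other osteoclast genes 9 of 30 were higher and 1 lower (5 and 1 with TPM as deposited), led by the sialic acid receptor gene Siglec15 (1.14), the membrane protease gene Mmp14 (-1.09) and the bicarbonate exchanger gene Slc4a2 (1.08). Of 14 stromal markers 9 were lower and 1 higher in Terc-/-, with sums of 373 to 856 TPM in Terc-/- and 1987 to 6300 TPM in wild type. Macrophage markers summed to 44069 to 48434 TPM in Terc-/- and 28154 to 34142 TPM in wild type, with 7 of 19 higher and 1 lower. The part of these cells, like that of the Xist difference, was not tested.

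At 6 months none of the 5 genes was called between unmarked Terc-/- and wild type, where 28.8% of all genes were. At an unadjusted p below 0.05 there were 2, Ctsk and Anxa8. The 28.8% rests on the spread pooled over all groups. With only these groups in the fit, 70 genes were called higher and 26 lower. Ctsk averaged 2822 ± 1150 TPM in Terc-/- and 4118 ± 1816 TPM in wild type (-0.68 ± 0.27, adjusted p = 0.0628), and Anxa8 54.6 ± 21.0 and 76.9 ± 39.2 TPM (-0.57 ± 0.24, adjusted p = 0.0784). Ctsk was called lower without Terc-/- replicate 1 (0.0469) or 2 (0.0391) or wild-type replicate 2 (0.0492), and Anxa8 without Terc-/- replicate 2 (0.0248). Acp5 averaged 4031 ± 1902 TPM in Terc-/- and 4967 ± 620 TPM in wild type (adjusted p = 0.171). Ckb (0.01 ± 0.31) and Calcr (0.23 ± 0.23) had ranges that overlapped, and Calcr was called higher without Terc-/- replicate 4 (0.64, adjusted p = 0.0103). That library had the lowest value of its group for all 5 genes, with Acp5 at 1860 TPM beside 4831 and 5403 TPM. Of 14 stromal markers 2 were higher and 9 lower in Terc-/-, with sums of 645 to 2215 TPM in Terc-/- and 2275 to 3258 TPM in wild type, and 12 of 19 macrophage markers were higher and none lower. Of 5 tested neutrophil markers 4 were higher, and the 12 listed summed to 149 to 316.4 TPM in Terc-/- and 34.8 to 74.8 TPM in wild type. S100a9, Elane, Mpo and Retnlg, of that list, were at 0 in every library of both groups. The part of these cells was not tested. The difference of the genotype effect between 6 and 1 months was called for none of the 5, with 3.58% of all genes called; it was -0.99 ± 0.44 for Ckb (adjusted p = 0.249). No member had an unadjusted p below 0.05 in it except Ckb.

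The 20-month unmarked wild-type large cells were compared with the younger ones. Ctsk averaged 8464 ± 2362 TPM at 20 months, against 4494 ± 445 TPM at 1 month and 4118 ± 1816 TPM at 6 months. It was called higher in both comparisons (0.75 ± 0.27, adjusted p = 0.0494, and 0.81 ± 0.27, adjusted p = 0.0314). Calcr averaged 5.49 ± 0.589 TPM at 20 months, against 2.60 ± 0.308 and 1.97 ± 1.42 TPM, and was called higher in both (0.73 ± 0.23, adjusted p = 0.025, and 1.03 ± 0.23, adjusted p = 0.00264). Anxa8 was called higher than at 6 months (0.65 ± 0.24, adjusted p = 0.0484) but not than at 1 month (0.49 ± 0.24, adjusted p = 0.158), and the first call was lost with median-of-ratios scaling (0.0551). Acp5 averaged 9196 ± 2482 TPM at 20 months, above every younger library, yet missed the threshold (adjusted p = 0.186 against 1 month and 0.153 against 6 months). Ckb went the other way with overlapping ranges (-0.18 ± 0.31 and -0.68 ± 0.31).

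These counts, 2 of 5 against 1 month and 3 of 5 against 6 months, stood beside 22.2% and 27.6% of all genes. With only the groups compared in the fit, 774 genes were called higher and 1074 lower against 1 month. Against 6 months these were 89 and 75. The Ctsk and Anxa8 calls were lost under most single omissions: against 6 months, without replicate 2 of the 6-month group, Ctsk had adjusted p = 0.119 and Anxa8 0.165, and without 20-month replicate 3 they had 0.154 and 0.241. Against 1 month, Ctsk had adjusted p = 0.242 and Calcr 0.0967 without 20-month replicate 3. The Calcr call against 6 months kept its side in each omission but not with only these groups in the fit (0.138). With TPM as deposited, Acp5 was called higher than at 6 months (0.86, adjusted p = 0.0314); that scaling put the median of all genes at 0.27. Stromal markers were 7 of 14 higher against 1 month and 10 of 14 higher against 6 months; macrophage markers were 5 of 19 lower in each, with 1 and 2 higher. Their part was not tested. Other osteoclast genes were 8 and 6 of 30 higher (12 against 6 months with TPM as deposited), with none lower, led by Oscar (1.86 and 1.37). Between 6 and 1 months in wild type none of the 5 was called, none had an unadjusted p below 0.05, and 9.58% of all genes were called. With only these groups in the fit, 11 genes were called higher and 15 lower.

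In unmarked Terc-/- large cells, Calcr was lower at 6 than at 1 month, at 3.31, 3.86 and 0.849 TPM against 5.17, 5.97 and 4.65 TPM (-0.88 ± 0.23, adjusted p = 0.0276). This was 1 of 5, where 3.98% of all genes were called. Of the 30 other osteoclast genes, 0 were higher and 3 lower. Of 14 stromal markers 7 were higher and 0 lower, with sums of 645 to 2215 TPM at 6 months and 373 to 856 TPM at 1 month, and 4 of 19 macrophage markers were higher and 1 lower. Their part was not tested. Without 6-month replicate 4 the change was -0.47 (adjusted p = 0.297), and it also lost its call without 1-month replicate 1 (0.0902) or 3 (0.163). In the 519 libraries, Ctsk was 3.52-fold higher at 6 months than at 1 month (1.82 ± 0.27, adjusted p = 4.15e-05) and Ckb 2.01-fold lower (-1.01 ± 0.31, adjusted p = 0.0227), where 23.9% of all genes were called. In that comparison 9 of 14 stromal markers were higher and 10 of 19 macrophage markers lower, and their part was not tested. The Ckb call was lost without 6-month replicate 1 (0.0544) or 2 (0.082) or 1-month replicate 2 (0.1). Between the marked 1-month groups, which differ in genotype and in mark, Ctsk was 2.43-fold lower in 519 Terc-/- than in gaiwei wild type (-1.28 ± 0.27, adjusted p = 0.00658). It was the only member called, where 3.45% of genes were, and it lost its call without gaiwei replicate 2 (0.0678).

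The order of the 10 groups differed between the genes. Acp5 and Ctsk were highest in 20-month wild-type large cells, above the next group with no overlap, and the other 4 unmarked large-cell groups overlapped their neighbours in order. Ckb was highest in 1-month Terc-/- and lowest of the unmarked groups in 20-month wild type (1111 ± 170 TPM, n = 3), though all neighbours among these 5 groups overlapped. Calcr was high in 20-month wild type and 1-month Terc-/-, which overlapped, and apart from the next 3 groups. The lowest Acp5 was in 6-month 2-day cultures (21.2 ± 3.67 TPM) and the lowest Ctsk in 1-month 519 cultures (27.0 ± 3.28 TPM, n = 3), each apart from the group above.

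**Figure D4:**
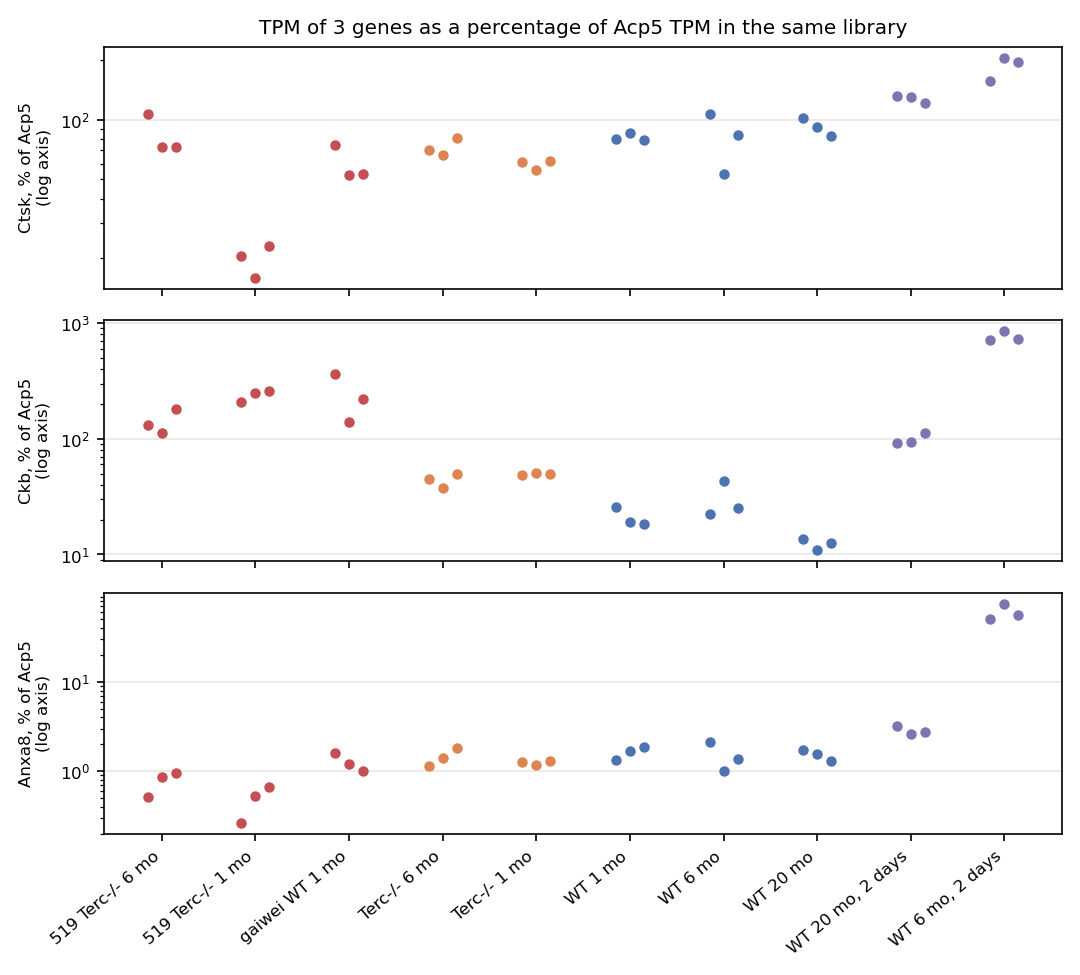
Ctsk, Ckb and Anxa8 TPM as a percentage of Acp5 TPM in the same library, on log axes, by group; each point is a library. Ckb is 48.9% to 50.5% of Acp5 in 1-month Terc-/- large cells and 18.2% to 25.7% in 1-month wild type.

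Within a library, the ratio of 2 genes does not depend on the scaling. Ckb was 49.7 ± 0.823% of Acp5 in 1-month Terc-/- large cells and 21.0 ± 4.04% in wild type (SD, n = 3 each). It was 43.9 ± 6.28% in 6-month Terc-/- and 30.5 ± 11.4% in wild type, where ranges overlapped, and 12.3 ± 1.37% in 20-month wild type. In marked libraries Ckb exceeded Acp5, at 112% to 365%, and in 6-month 2-day cultures it was 766 ± 79.2% of Acp5. Ctsk was 59.5 ± 3.50% of Acp5 in 1-month Terc-/- and 81.6 ± 3.84% in wild type, with ranges apart. In 1-month 519 libraries that share was 19.9 ± 3.56%, the lowest of the 10 groups. Anxa8 was 1.00% to 2.13% of Acp5 in all unmarked large-cell libraries, 2.87 ± 0.296% in 20-month and 60.5 ± 12.9% in 6-month 2-day cultures. These shares carry no test.

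Relatives of the 5 genes were examined next, by family. Acp5 made up 91.6% to 99.1% of the TPM of 7 acid phosphatases per unmarked large-cell library, against 24.2% to 48.3% per marked library and 12.9% to 59.3% after 2 days. Acpp, the prostatic acid phosphatase gene, ran opposite to Acp5 in the marked and stage comparisons, but not between ages at 2 days. It averaged 281 ± 36.4 TPM in 6-month 519 cultures and 59.0 ± 16.1 TPM in unmarked Terc-/- (2.54, adjusted p = 1.36e-07, n = 3 each). Acpp was also higher in 6-month Terc-/- than in wild type, at 59.0 ± 16.1 and 3.72 ± 0.797 TPM (3.54, adjusted p = 4.57e-09).

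Among 14 cathepsins, Ctsk took 42.2 ± 7.93% of the TPM in 20-month wild-type large cells, 22.7 ± 1.92% at 1 month and 24.8 ± 6.01% at 6 months. In unmarked Terc-/- it took 9.67 ± 0.773% at 1 month and 11.6 ± 4.54% at 6 months, ranges that lay below those of wild type of the same age. Its share was 0.117% to 1.06% in marked libraries. Ctsd, the aspartyl protease of lysosomes, had 6438 to 10936 TPM in marked and 4888 to 15377 TPM in unmarked large-cell libraries. Of 11 other tested cathepsins, 5, 2 and 8 were higher and 1, 3 and 2 lower in the 1-month 519, 6-month 519 and gaiwei comparisons. With TPM as deposited these counts were 2, 2 and 3 higher and 4, 5 and 3 lower, so the balance of the family turned with the scaling. Ctsc, the activator of granule proteases, was the one most raised in each, by 2.03, 1.38 and 1.67. Between Terc-/- and wild type, 5 of 11 were higher and 2 lower at 1 month, and 6 higher and 1 lower at 6 months. Ctsd was higher at both ages (1.09 and 0.82) and the cysteine protease gene Ctsb at 1 month (0.99), beside Ctsk at -0.71 and -0.68, which missed the threshold.

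The cathepsin inhibitor list had 6 tested genes. Among them Stfa3, a stefin, averaged 4894 ± 1851 TPM in gaiwei libraries and 9.18 ± 5.88 TPM in unmarked 1-month wild type (9.54, adjusted p = 1.24e-10). The stefin A genes are near-identical copies, so the split of reads between them is uncertain. Cst3, the secreted inhibitor cystatin C, was higher in large cells than at 2 days at 6 months (2.29, adjusted p = 7.23e-08) and at 20 months (1.36, adjusted p = 7.45e-05).

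**Figure D5:**
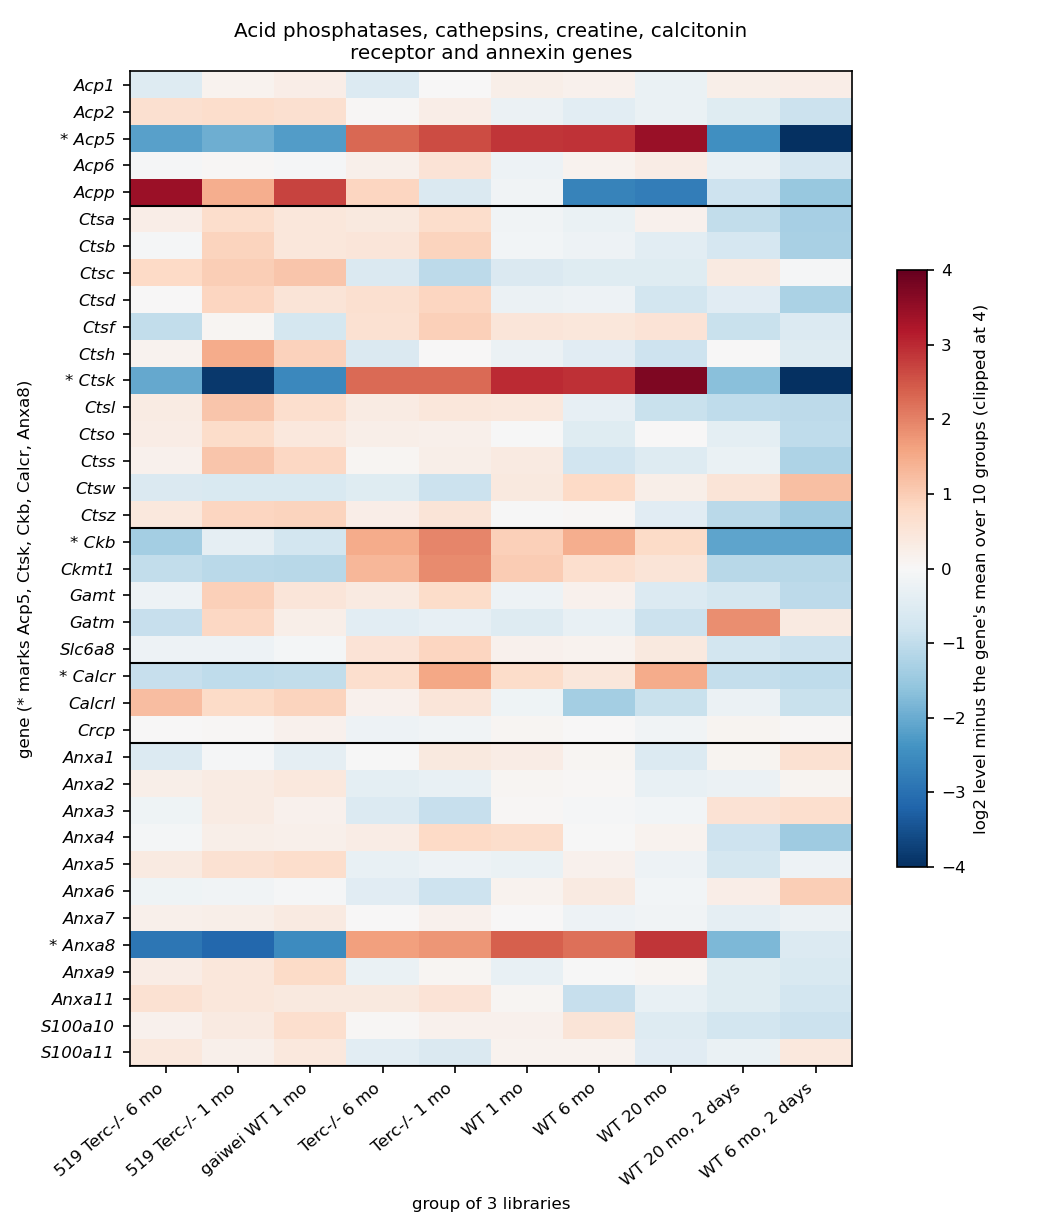
Log2 level of relatives of the 5 genes in each group minus the gene's mean over the 10 groups (red higher, blue lower, clipped at 4), from marked (left) to 2 days (right); asterisks mark the 5 genes. Acp5, Ctsk and Anxa8 are red across the 5 unmarked large-cell groups and blue elsewhere, unlike most other members of their families. The cathepsin gene Ctsf has a weaker form of this pattern. It is at 0.47 to 0.95 in the unmarked large-cell groups, 0.08 in 1-month 519 and below 0 elsewhere.

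Ckb had a partner in its own pathway. Ckmt1, the mitochondrial creatine kinase gene that feeds phosphocreatine to the cytosol, had 1.501 to 9.92 TPM per library in unmarked large cells. It was listed at 0 at 2 days and reached at most 0.129 TPM in marked libraries. Ckmt1 was higher in 1-month Terc-/- than in wild type (0.86, adjusted p = 0.0365), at 7.43 ± 2.18 and 3.76 ± 1.48 TPM (n = 3 each). Slc6a8, the creatine transporter gene, and Gamt, a creatine synthesis gene, were higher there too (0.67, adjusted p = 2.14e-04, and 0.95, adjusted p = 0.00354). Thus 3 of the 4 other tested creatine genes were called higher at 1 month, where 30.9% of all genes were called in either direction, and 1, Slc6a8 (0.39, adjusted p = 0.0197), was higher at 6 months. Gatm, which makes the creatine precursor, ran the other way in stage: it had 25.0 ± 2.28 TPM in 20-month large cells and 187 ± 25.5 TPM at 2 days (-2.72, adjusted p = 1.55e-08).

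For Calcr, 2 of 7 relatives in the calcitonin family were tested. Calcrl, the receptor for calcitonin gene-related peptide and adrenomedullin, was higher in 6-month 519 Terc-/- (1.04, adjusted p = 0.00155) and in gaiwei wild type (1.06, adjusted p = 7.3e-04) than in the unmarked partners, calls that were lost with TPM as deposited (0.0645 and 0.163). It was higher in unmarked Terc-/- than wild type at 1 month (0.67, adjusted p = 0.0345, or 0.145 with TPM as deposited) and 6 months (1.54, adjusted p = 4.22e-05). Anxa8 took 0.995% to 5.17% of the TPM of 12 annexin genes per unmarked large-cell library and 0.0116% to 0.0547% per marked library. Of 11 other tested genes of the annexin list (annexins and S100 partners), 5, 5 and 3 were higher and 2, 2 and 2 lower in the 1-month 519, 6-month 519 and gaiwei comparisons. With TPM as deposited they were 2, 3 and 2 higher and 3, 2 and 5 lower. The largest changes in these comparisons were those of Anxa3 (1.23), S100a11 (0.82) and Anxa9 (1.04).

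The genes closest in pattern were found by the root-mean-square difference of centred log2 levels over the 10 groups, among 9286 genes averaging 5 TPM or more. For Acp5 these were Atp6v0d2 (0.51), Slc9b2 (0.61) and the metallothionein gene Mt3 (0.71), with Ctsk 4th at 0.78. The genes nearest to Ctsk were Mt3 (0.65), Oscar (0.70) and Dcstamp (0.72). For Anxa8 they were the tetraspanin gene Tspan7 (0.49), the vesicle GTPase gene Rab38 (0.68) and Oscar (0.80). Tspan7 had, like Anxa8, more RNA in 6-month than in 20-month 2-day cultures, at 6.02 and 3.58 TPM. Ckb was nearest to the ketone body enzyme gene Bdh2 (0.40), the phosphatase gene Ptpn22 (0.42) and the small GTPase gene Rhof (0.45). The closest member ranked for Ckb was Anxa8, at rank 4838. Calcr was too low to be ranked there, but it differed from Ckb by 0.745, the least of any pair of members. Ckb was at rank 318 for Calcr. Calcr was nearest to the phosphate exporter gene Xpr1 (0.19), Slc4a2 (0.28) and Rassf8 (0.30). Calcr has a mean under the 5 TPM needed to be counted as a neighbour, and its low level compresses its own pattern on the log2(TPM + 1) scale. The measure covers 10 group means from shared libraries and carries no test.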

How the data were processed

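The authors deposited 5 tables for 45706 Ensembl IDs, read here as TPM because every column sums to 1000000. That sum shows scaling to the library total. The adjustment for gene length is assumed from the unit and was not checked. Per the submitters' processing notes, HTSeq and mm10 were used; the aligner, annotation and strand setting are not given in the sources used here. IDs were named through GENCODE M21 (45143 matched). TPM was divided by a scale factor per library (a mean of log ratios trimmed by 30% and by 5% on level), 1 was added and log2 taken. limma 3.58.1 (R 4.3.3), with trend and robust moderation, fitted 10 group means to the 12614 genes averaging 1 TPM or more. Contrasts used one spread shared by the 30 libraries, with Benjamini-Hochberg adjustment within each and a threshold of 0.05. The script was tested on simulated data. Tables and figures were made with Python 3.11.15 (pandas 2.3.3, numpy 2.4.6, matplotlib 3.10.9).

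The 5 genes and all lists were chosen with earlier results of these data known. Named genes were the 5, their 3 nearest genes by pattern, and up to 4 called genes of largest change per list. Depth is unknown, so no counting intervals are given. Alternatives changed scaling, pseudocount, filter, replicate block, variance, samples in the fit, and left out each library; leaving out 6-month wild-type replicate 2 where its group is not compared was chosen after seeing the data.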

Additional observations from a re-analysis of the deposited data

Results flagged for a closer look

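The change from 2 days to large cells was tested for a difference between 20-month and 6-month wild-type cultures (limma, 20 months minus 6 months). It differed for Acp5, Ctsk and Anxa8, where 25% of all genes were called. It was smaller at 20 months for Acp5 (-2.30, adjusted p = 4.74e-04) and Ctsk (-1.57, adjusted p = 0.00451). It was larger at 20 months for Anxa8 (1.88, adjusted p = 3.44e-04). The Calcr term also passed the threshold (0.95, adjusted p = 0.0348), but both its 2-day groups lay at or near 0. That term therefore cannot be told apart from the large-cell difference between ages. Calcr lost its call in 13 alternatives, with adjusted p up to 0.329, and was listed at 0 in 1 of the 4 groups; Ctsk lost its call with one variance per group (0.0775). In the same test 9 of 14 stromal markers had a larger change at 20 months, and 10 of 19 macrophage and 2 of 2 B cell markers a smaller one; their part was not tested.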

How the results depend on the processing

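Of 1150 alternative values for the 80 member results, 1036 kept their direction and side of the threshold, 60 lost a call, 17 gained one and 37 turned direction. These counts include the Calcr results of the stage and marked comparisons, which support no call. They also include Calcr results between groups at or near 0, which could hardly change side of the threshold. Calcr is also among the 4 genes called for stage by age. All calls of Acp5, Ctsk, Ckb and Anxa8 in the stage and marked comparisons, and the 3 at 2 days, held under every alternative run. With a pseudocount of 0.1, the genes called moved to 1 (from 2) for Terc-/- against wild type at 1 month, 0 (from 2) for 20 against 1 month, 2 (from 3) for 20 against 6 months (Anxa8 lost, 0.0934), 3 (from 4) for stage by age, 0 (from 1) for 6 against 1 month in Terc-/-, and 2 (from 1) between the marked 1-month groups. For 20 against 1 month, no filter, one variance per group and only the groups compared gave 1 each; for 20 against 6 months (3 with all groups fitted) these gave 1, 0 and 0. Terc-/- at 6 against 1 month had 0 with TPM as deposited and 0 with only the groups compared. One variance per group left 2 of 4 calls in the stage-by-age test.

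Replicate numbers did not pair the libraries: 33 same-numbered pairs correlated at -0.60 to 0.33. With the replicate block, 4 genes (2 without) were called for Terc-/- against wild type at 1 month and 2 (0 without) at 6 months. Those gained were Ctsk (adjusted p = 0.0284 and 0.0376) and Anxa8 (0.0302 and 0.0427), lower in Terc-/-. Acp5 at 6 against 1 month in wild type turned to -0.15 with TPM as deposited and -0.059 with the block, and Ckb between 2-day ages to 0.0066 and 0.13.

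Leaving out each library gave 0 to 4 and 0 to 2 genes called by genotype at 1 and 6 months, 0 to 2 and 1 to 4 for 20 against 1 and 6 months, 0 to 1 for Terc-/- ages, 1 to 2 for 519 ages, 3 to 4 for stage by age and 0 to 1 between marked 1-month groups. Values that turned ranged from -0.24 to 0.47 (Ckb) and -0.01 to 0.64 (Calcr) by genotype at 6 months, -0.16 to 0.20 (Acp5) and -0.22 to 0.13 (Ctsk) for 6 against 1 month in wild type, and -0.41 to 0.17 (Ckb) for 20 against 1 month. In Terc-/- ages they ranged from -0.56 to 0.15 (Acp5), -0.22 to 0.34 (Ctsk) and -0.37 to 0.14 (Anxa8); at 2 days from -0.088 to 0.027 (Ckb); between marked 1-month groups from -0.0031 to 0.55 (Acp5) and -0.063 to 0 (Calcr). In the genotype-by-age test they ranged from -0.57 to 0.14 (Acp5), -0.16 to 0.40 (Ctsk) and -0.20 to 0.31 (Anxa8).

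TPM as deposited shifted the median log2 change of all genes and so the calls higher and lower: 1627 and 5323 (from 3109 and 3167, median -0.36) for stage at 6 months, 1683 and 2546 (from 2358 and 2207, -0.11) at 20 months, 878 and 4812 (from 2330 and 1907, -0.39) for 1-month 519, 884 and 3418 (from 1816 and 1743, -0.26) for 6-month 519, 1225 and 6250 (from 3047 and 2818, -0.49) for gaiwei, 2519 and 1019 (from 1608 and 1875, 0.27) for 20 against 6 months, 1248 and 1076 (from 1160 and 1635, 0.10) for 20 against 1 month, 1393 and 729 (from 1518 and 1492, 0.14) for 519 ages, and 1753 and 1022 (from 1561 and 1591, 0.24) for stage by age. The unknown depth limits most what can be said of Calcr, listed at 0 in many libraries.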
